A study of Hordeum vulgare with 6 samples.

Results

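The chloroplast keeps a small genome of its own, and many of its protein genes encode core parts of the photosynthetic machinery. The 44 plastid-encoded photosynthesis genes of barley are described here, out of 75 genes on the plastid chromosome (Pt) and 39841 genes in all. They were chosen by chromosome and symbol alone, as the Pt genes whose names begin with psa, psb, pet, atp, ndh or rbc, and the rule itself uses no measured value. The comparison asked whether their transcripts in shoots differ between barley grown on soil short of inorganic phosphate (Pi) and barley supplied with it. Plants of the line Rolap grew for 23 days under 16 h of light at 22 °C. The soil itself held 8 mg of phosphorus per kg. The low-Pi pots received no phosphate, whereas 60 mg per kg was added to the control pots. Each group had 3 libraries of poly(A)-selected RNA, and 1 library stood for a pot of 3 plants.

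Photosystem II splits water and passes electrons to the cytochrome b6f complex, and photosystem I lifts them to the energy needed to reduce ferredoxin. The proton gradient built along this chain drives the ATP synthase, and Rubisco fixes carbon dioxide with the products. The chloroplast NDH complex returns electrons from ferredoxin to the chain and takes part in cyclic electron flow. Each of these assemblies joins plastid-encoded with nuclear-encoded subunits, which reach the organelle as precursor proteins. Plastid genes are largely transcribed in clusters, and their messengers mostly lack the long poly(A) tails of nuclear messengers. A level measured after poly(A) selection is therefore no measure of how much of a plastid transcript the cell held. For the same reason, a difference between groups in transcript amount cannot be told apart from a difference in the share selected.

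Values are those of the authors' deposited table, which compares the groups and holds no value for a single library. The level is the higher of the 2 group means of normalised expression, in a unit that the table does not name and that proved to be scaled by gene length. The change is the fitted log2 fold change of low-Pi over control, so a value above 0 stands for a higher fitted value in low-Pi. No standard deviation, standard error or order of single libraries can be given for any of these values. In bulk shoots, fewer cells of a type and less RNA per cell cannot be told apart. Positions are on the barley assembly IBSC_v2, counted from 1.

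Of the 44 genes, 29 had a level above 0 and a p-value, 22 reached a level of 1 and 15 reached a level of 10. The other 15 were listed at 0. The share with a p-value was 65.9%, beside 64.5% of the other 31 plastid genes, 75.0% of 32 mitochondrial genes and 67.8% of 39734 nuclear genes. No member passed the test: 0 of 29 had a Bonferroni p under 0.05, where 0.363% of all 27022 tested genes did, and 0 of 29 had a false discovery rate (FDR) under 0.05, where 1.07% did. Without adjustment 2 members had a p under 0.05, where 8.77% of all tested genes did. Both of them, ndhK and petD, had the higher fitted value in low-Pi, a direction and threshold shared by 5.4% of tested genes. Neither share of members stood far from its background.

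The fitted changes lay mostly on the side of low-Pi and were small. The log2 fold change was above 0 for 25 of 29 members, beside 52.3% of all tested genes. The median over the members was 0.37, against 0.03 over all tested genes. Genes of a single organelle share transcripts, templates and the RNA of the same pots, so the 25 are not 25 separate observations. The other plastid genes had a median of 0.60 with 16 of 20 above 0, and the mitochondrial genes had a median of 0.45 with 16 of 24 above 0. Medians above that of all tested genes were thus measured in all 3 groups of organelle genes. Among genes with a level of at least 10, the smallest called change was 2.63-fold under Bonferroni and 2.03-fold under the FDR. These values describe the called genes and are no limit above which every change is called. At that level the largest change of a member was 1.81-fold, for petD. No gene of that level with a change as small was called, so the missing calls do not show that the members kept their levels. Members of lower level with larger changes were not called either, such as ndhK at 2.17-fold.

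**Figure D1:**
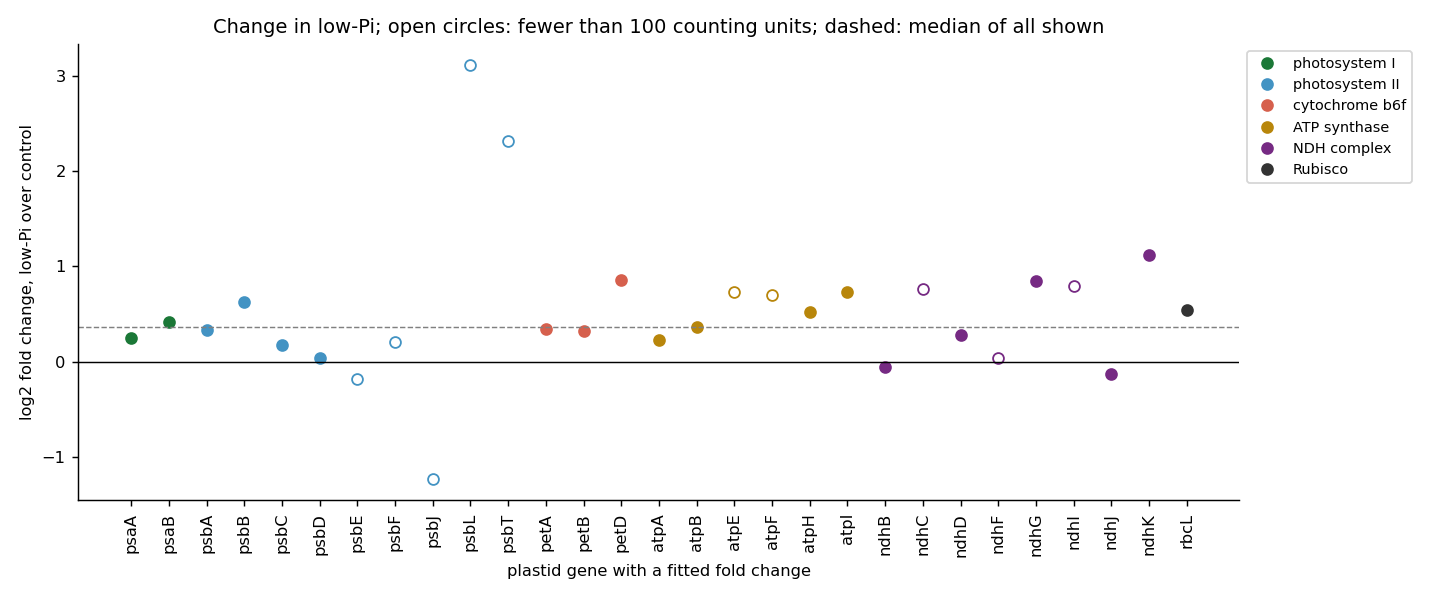
Fitted log2 fold change, low-Pi over control (vertical axis), of the 29 members with a p-value, ordered and coloured by complex. Filled circles are genes with at least 100 counting units in the higher group, open circles are genes with fewer, the solid line is 0 and the dashed line is the median of 0.37. The filled circles lie between -0.13 and 1.12, whereas psbL, psbT, psbJ and psbE, all open, lie outside that range.

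The precision behind each value differed widely, and the table itself gave a measure of it. Many low genes had exactly the same fitted change and p, and the 6 commonest of these patterns were each shared by 117 to 178 genes. Within each pattern the product of level and annotated length recurred, to 8 decimals, in 40 to 91 genes, which is what a single counting unit, a read or a read pair, in 1 library would give. The patterns fell into 3 for low-Pi and 3 for control, the number of libraries. The largest of these products, called steps here, was 1.55 times the smallest, so that depth differed by up to this factor if each pattern is 1 library. With these steps a level could be turned into a lowest and a highest possible number of counting units in the higher group. By the lowest number, 19 members rested on at least 100 counting units and 10 on fewer. Over those 19 genes the log2 fold change ran from -0.13 to 1.12, with a median of 0.35 and 17 of 19 above 0.

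**Figure D2:**
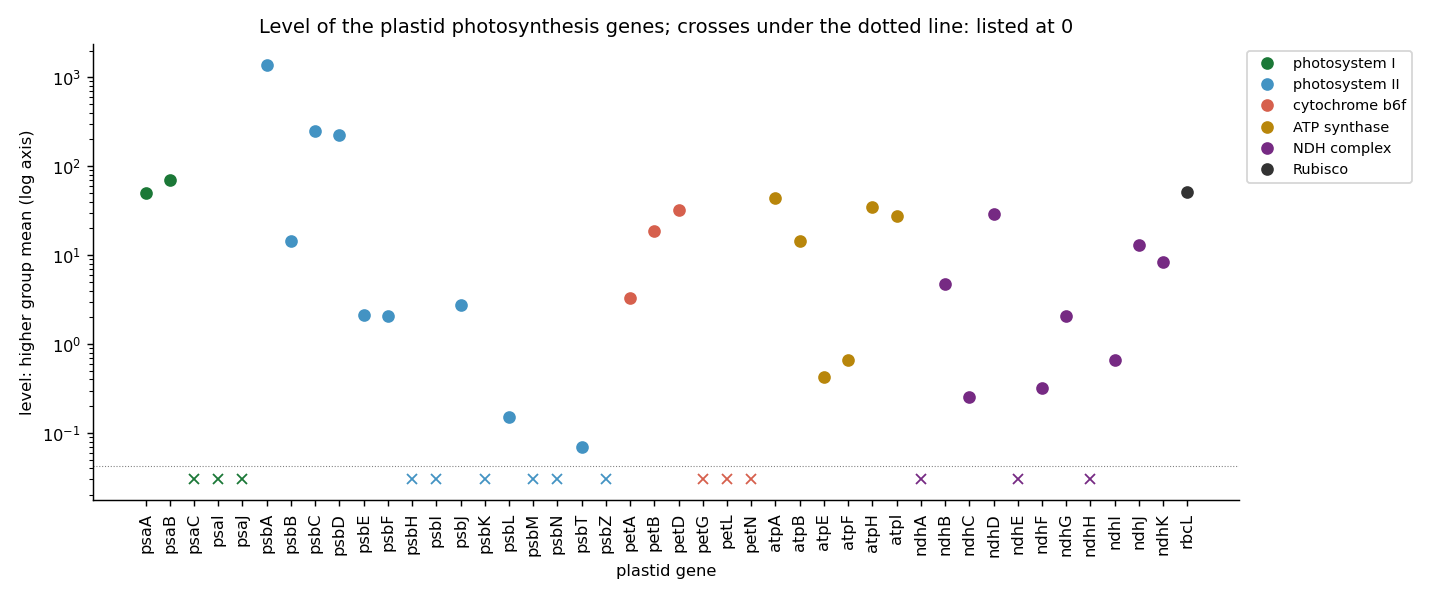
Level, the higher of the 2 group means, on a log axis for all 44 members, ordered and coloured by complex. Circles are genes with a level above 0, and crosses under the dotted line are the 15 genes listed at 0, which have no place on a log axis. psbA stands highest at 1387, followed by psbC and psbD, and the levels of the rest spread from 70.8 down to 0.069.

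Photosystem II held the highest level of all members and the lowest of those above 0. Its 15 plastid genes encode the reaction centre proteins, the inner antenna and a row of small membrane subunits, and 9 of them were above 0. psbA (Pt, 82 to 1143, minus strand) encodes the D1 protein, which is damaged by light and steadily replaced. Its level of 1387 was the 47th highest of all genes and made up 60.6% of the summed level of the 44 members. It rested on at least 150367 counting units. Its log2 fold change was 0.33, and its p in the authors' deposited table was 0.386. psbD (8617 to 9678, plus strand), for the D2 protein, had a level of 223 and a log2 fold change of 0.03. psbC (9626 to 11047, plus strand), for the inner antenna protein CP43, had a level of 249 and a log2 fold change of 0.17. These neighbours share 53 bases and had nearly the same level. psbB, for the other inner antenna protein CP47, was far lower at 14.6, with a log2 fold change of 0.62 and p = 0.133 in the authors' deposited table.

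The small subunit genes of photosystem II had low levels and rested on few counting units, at most 84.1. psbE and psbF, which encode the subunits of cytochrome b559, had levels of 2.10 and 2.08 and log2 fold changes of -0.18 and 0.21. psbJ, next to them, had the lowest fitted change of all members, a log2 fold change of -1.24 at a level of 2.77, and p = 0.109 in the authors' deposited table. The highest fitted changes, 3.12 for psbL and 2.31 for psbT, carried almost no data. The level of psbT equalled that of 1 counting unit in 1 low-Pi library, and 117 genes shared its fitted change and p. The level of psbL equalled the sum of the steps of 2 low-Pi libraries, that is 1 counting unit in each. The genes of further small proteins of the complex or its assembly, psbH, psbI, psbK, psbM, psbN and psbZ, were listed at 0. Without the members of fewer than 100 counting units, photosystem II was left with psbA, psbB, psbC and psbD, whose log2 fold changes ran from 0.03 to 0.62.

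Photosystem I showed a split between its large and its small plastid genes. psaA (39085 to 41337, minus strand) and psaB (36855 to 39059, minus strand) encode the pair of large proteins that hold its reaction centre. Their levels were 50.4 and 70.8, and their log2 fold changes were 0.25 and 0.41. The lower p of the pair in the authors' deposited table was 0.276, for psaB. psaC, which encodes the iron-sulphur protein at the acceptor side, and the small subunit genes psaI and psaJ were listed at 0. All photosystem I values therefore came from a pair of neighbouring genes separated by 25 bases.

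In the cytochrome b6f complex, petD had the lowest p among members with a level above 10. petD (73591 to 74115, plus strand) encodes subunit IV and had a level of 32.0. Its fitted value was 1.81-fold higher in low-Pi, a log2 fold change of 0.86, with p = 0.0355 and an FDR of 0.755 in the authors' deposited table. petB (72000 to 72698, plus strand), which encodes cytochrome b6 and lies just upstream of petD, had a level of 18.4 and a log2 fold change of 0.32. petA, for cytochrome f, had a level of 3.30 and a log2 fold change of 0.35. The genes of the small subunits, petG, petL and petN, were listed at 0.

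The ATP synthase was the only complex of more than 1 gene in which every plastid gene was above 0, and each of its 6 genes had a positive log2 fold change, from 0.23 to 0.74. The catalytic core genes atpA (34293 to 35807, plus strand) and atpB (52115 to 53611, minus strand), for the alpha and beta subunits, had levels of 44.1 and 14.6 and log2 fold changes of 0.23 and 0.37. atpH, for the subunit of the membrane ring, had a level of 35.0 and a log2 fold change of 0.52. atpI, for subunit a of the membrane part, had a level of 27.3 and a log2 fold change of 0.73, with p = 0.101 in the authors' deposited table, the lowest of the complex. atpF, for subunit b of the stalk, and atpE, for the epsilon subunit, had levels of 0.665 and 0.423 and log2 fold changes of 0.70 and 0.74. Both rested on fewer than 100 counting units by the lowest estimate.

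The NDH genes had the widest spread of changes among well-read members. ndhK (48825 to 49562, minus strand), which encodes a subunit of the arm that carries the iron-sulphur clusters, had a level of 8.29. Its fitted value was 2.17-fold higher in low-Pi, a log2 fold change of 1.12, with p = 0.00753 in the authors' deposited table. Its FDR there was 0.367, and 0.249 when the adjustment was made over the 27022 tested genes alone. ndhJ (48243 to 48722, minus strand), the next gene on the same strand and a subunit gene of the same arm, had a level of 12.9 and a log2 fold change of -0.13. ndhC, which shares 10 bases with ndhK on its other side, had a level of 0.251 and a log2 fold change of 0.77, from at most 14.4 counting units. The 3 neighbours thus differed by 1.24 on the log2 scale in change, a difference that the table does not allow to be tested. The highest level of the complex was 28.7, for ndhD, a membrane subunit, with a log2 fold change of 0.28. ndhB and ndhG, also membrane subunits, had levels of 4.70 and 2.07 and log2 fold changes of -0.05 and 0.85. ndhI, for an iron-sulphur protein, and ndhF, for a further membrane subunit, had levels of 0.665 and 0.317, with log2 fold changes of 0.79 and 0.04. By the lowest number, ndhI rested on 36.9 and ndhF on 71.9 counting units. ndhA, ndhE and ndhH were listed at 0. The span of ndhH in the table is 12911 bases and covers 7 of the members as well as ccsA and rpl32, and ndhB has an identical copy in the inverted repeat while the table lists it once. These entries are uncertain because how reads shared between entries were counted is not known here.

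rbcL (54394 to 55833, plus strand) encodes the large subunit of Rubisco and was the only plastid gene of its class. Its level was 51.7, beside 1387 for psbA. Its log2 fold change was 0.54, with p = 0.458 in the authors' deposited table.

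The complexes were not set apart by their changes. The median log2 fold change was 0.61 for the ATP synthase (6 genes above 0), 0.52 for NDH (8 genes), 0.35 for cytochrome b6f (3 genes), 0.33 for photosystem I (2 genes) and 0.21 for photosystem II (9 genes). With only the genes of at least 100 counting units these medians became 0.44, 0.28, 0.35, 0.33 and 0.25. The ranges of the complexes overlapped in both sets.

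Detection followed the annotated span. Of 23 members of up to 500 bases, 9 were above 0, against 20 of 21 longer members, the exception being ndhH. The same contrast held outside the set: 6 of 16 short and 14 of 15 longer plastid genes of other function had a p-value, as did 16.7% of short and 75.8% of longer nuclear genes. Apart from ndhH, the members listed at 0 were thus genes of at most 492 bases. Since the level is per length, a limit of 3 counting units, set here, corresponds to a level of 0.060 for ndhA and of 0.326 for petN. These are the longest and shortest of those genes, and counting error alone was considered. The limit is not the floor of the values, since psbT was above 0 with 1 counting unit. Genes of equal span could stand far apart, as atpH and psaC did, both of 246 bases, with levels of 35.0 and 0. psaC lies inside the uncertain entry of ndhH.

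**Figure D3:**
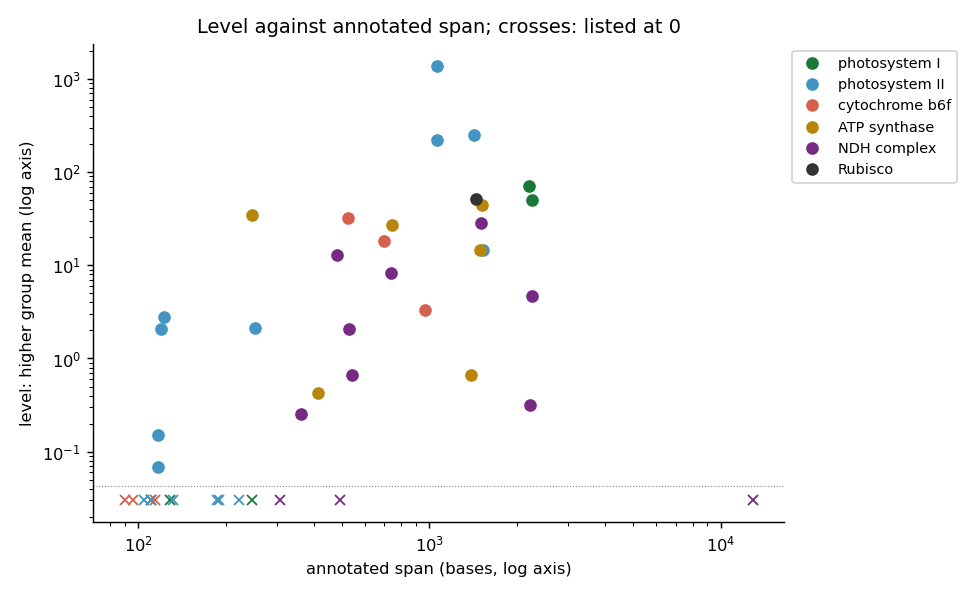
Level (log axis) against annotated span in bases (log axis) for all 44 members, coloured by complex. Circles are genes above 0 and crosses under the dotted line are the 15 genes listed at 0. Crosses crowd below 500 bases, and the single cross at the far right is ndhH with its span of 12911 bases.

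Levels also differed greatly between neighbours of one cluster. In the cluster from psbB to petD, the levels on the plus strand were 14.6 for psbB, 0.069 for psbT, 0 for psbH, 18.4 for petB and 32.0 for petD, a ratio of 463 between the highest and the lowest above 0. In the cluster from atpI to atpA the levels ranged from 0.665 for atpF to 44.1 for atpA, a ratio of 66.4. From ndhA to ndhD, a stretch of 6 genes, ndhD stood at 28.7 while psaC, ndhE and ndhA were listed at 0. The pairs psbD with psbC and psaA with psaB had levels within 1.40 times of each other, and their changes lay within 0.16 of each other on the log2 scale. These clusters were picked with the values known, and no test was made on them.

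Against nuclear genes of the same level the members' changes depended on where they stood. Among nuclear genes the median log2 fold change itself moved with level, from 0.02 under a level of 1 and 0.00 between 1 and 10 to 0.28 between 100 and 1000 and 0.72 from 1000 up, where 95.0% of 60 genes were above 0. The 7 members with a level between 1 and 10 had a median of 0.21. Of these, 4 were above 0, beside 50.0% of 9923 nuclear genes. In this class psbE and psbJ, below 0, and psbF, above 0, rested on fewer than 100 counting units by the lowest number. All 7 members under 1 were above 0, beside 51.1% of 12635 nuclear genes. These 7 members under 1 each rested on fewer than 100 counting units by the lowest number. Among them, psbT and psbL rested on 1 and 2 units in low-Pi libraries, so their direction was fixed by those units. The 12 members with a level between 10 and 100 had a median of 0.39, beside 0.07 over 3825 nuclear genes, and 11 of the 12 were above 0, beside 57.7% of those nuclear genes. psbC, psbD and psbA, the members above 100, lay below the nuclear median of their class by 0.10, 0.24 and 0.39 on the log2 scale. The part of this dependence on level in the members' changes was not tested.

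**Figure D4:**
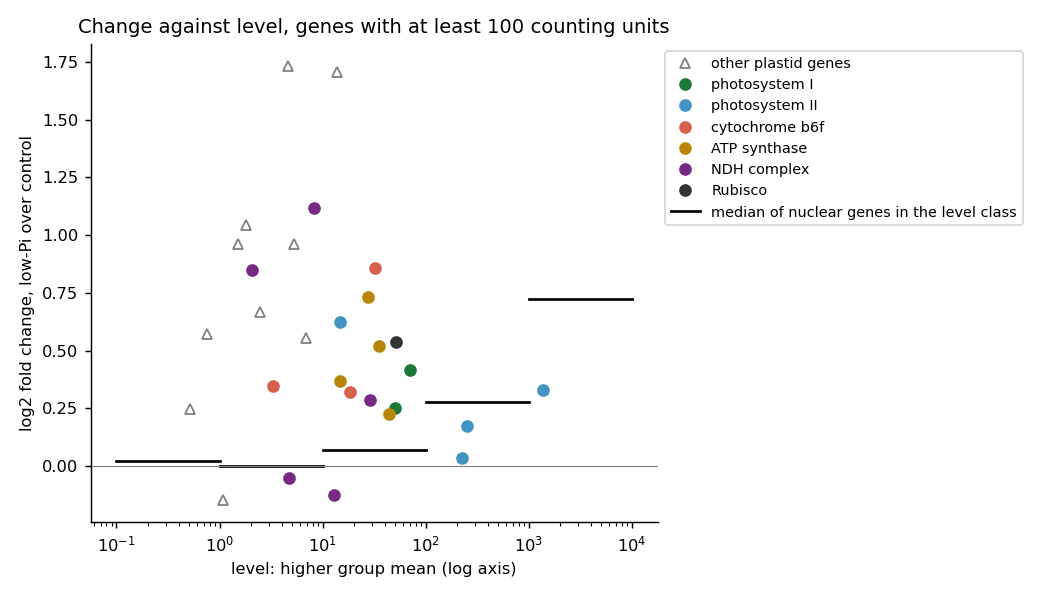
Log2 fold change, low-Pi over control, against level (log axis) for the 19 members (filled circles, coloured by complex) and 10 other plastid genes (grey triangles) with at least 100 counting units. Black bars are the medians of all tested nuclear genes in each class of level, without a limit on counting units. Members at 10 to 100 lie mostly above their bar, and the 3 members above 100 lie below theirs.

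The remaining plastid genes gave a frame for these values. The genes of assembly factors of photosystem I, ycf3 and ycf4, had levels of 1.07 and 0.626 and log2 fold changes of -0.15 and 0.04. ccsA, which serves cytochrome c biogenesis, and cemA, an envelope membrane protein gene, had levels of 1.51 and 2.45 and log2 fold changes of 0.96 and 0.67. None of the 4 passed the test. Of 25 genes of plastid transcription, splicing and translation, 14 had a p-value and 11 of these were above 0, with a median of 0.56. In this class 3 genes had an unadjusted p under 0.05 and were higher in low-Pi, beside 5.4% of all tested genes. The maturase gene matK_2 had a log2 fold change of 1.71, rpl14 of 2.93 and rps18 of 1.73. Their p-values in the authors' deposited table were 0.00425, 0.00377 and 0.0108, and none had an FDR under 0.24. By the lowest number, rpl14 rested on 87.5 counting units. No transfer or ribosomal RNA gene was among the plastid genes listed. In summed level the members reached 2286, against 45.2 for the other plastid genes and 589470 for all genes, a share of 0.388%.

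Nuclear genes of the light harvesting antenna offer the other side of the photosystems. The study had singled out 6 of them on these same libraries, so their direction is no independent evidence. Their levels ran from 67.7 to 411, which covers those of psbC and psbD. Their log2 fold changes ran from 1.75 to 2.04, apart from 8.90 for HORVU1Hr1G078380. All 6 had a Bonferroni p under 0.05, but the study chose its genes by this threshold, so their passing was fixed in advance. Antenna genes that the study did not single out were not examined here. The photosystem members with the highest levels, psbA, psbC, psbD, psaB and psaA, had log2 fold changes between 0.03 and 0.41. These members did not pass the Bonferroni threshold. Whether the groups of genes differ in change was not tested. The markers listed for green tissue, which were psbA, psbD, psaA, psaB, petB, rbcL and the 6 antenna genes, all had levels above 10. Other genes of the same complexes did not, such as petA at 3.30 and psbE at 2.10, and psaC, psbH, psbK and petG were listed at 0.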

How the data were processed

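Poly(A) RNA of 3 low-Pi and 3 control shoot samples was sequenced in pairs of 150 cycles from 1500 ng of total RNA, with 420 pg of spike-in RNA added. The authors mapped the reads to IBSC_v2 and tested low-Pi against control with CLC Genomics Workbench. For that program the version, strand setting and treatment of shared reads are not given in the sources used. The level is a normalised signal the authors deposited without a unit. Its sum over all genes, 589470, is below what TPM over these genes would reach. The log2 fold change and the p-value, with Bonferroni and FDR adjustments over all 39841 genes, are also as the authors deposited them. Column values were used as given, because no library had a value of its own, and no model was fitted. Depth per sample is unknown beyond the steps given with the results.

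Members were found by chromosome and symbol. All 44 symbols were found in RefSeq (MorexV3), which lists ndhB and ndhH 2 times. Genes were called identical in pattern when change and p matched to 6 decimals. The step of a library was the commonest product of level and span (kb) in its pattern, taken to 8 decimals. Numbers of counting units are too high for genes with annotated introns. The step search was tested on simulated data, as was the adjustment over tested genes, with Python 3 packages pandas and numpy. The simulated levels were built from counts, depth and span. That test could therefore not show whether the patterns in the deposited values are single counting units. Named genes were, per complex, those called, those with the highest and lowest level and change, rbcL and all listed at 0; the others are given by role. Members and lists were chosen with earlier results of these data known.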

Additional observations from a re-analysis of the deposited data

How the results depend on the processing

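The count of called members was 0 under Bonferroni and stayed 0 at the FDR, with Bonferroni or Benjamini-Hochberg adjustment over the tested genes alone, at levels of at least 1 or 10, and without the 15 members that overlap a listed gene or have a duplicate entry. It was 2 at an unadjusted p under 0.05. It was also 0 with at least 100 counting units, a limit chosen after seeing the data. The 29 detected members became 22 at a level of 1 and 15 at a level of 10. The median log2 fold change of 0.37 became 0.52 as a mean, which psbL and psbT raise, and 0.47 without the photosystem II genes. Relative to the median of the other plastid genes it was -0.24, since those genes had the higher median, from 20 genes. The other alternatives kept it between 0.32 and 0.39. No replicate could be left out, and no paired analysis was possible because the table holds no value per library. The 10 members of fewer than 100 counting units are the least precise by counting error alone.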

Other observations

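Members at a level between 10 and 100 had higher p-values than nuclear genes of like level and change. In the window of log2 fold changes from 0.2 to 0.9, chosen after seeing the data, 11 members had a median p of 0.32 in the authors' deposited table, and 1299 nuclear genes had a median of 0.162. Of the members 1 had a p under 0.05, against 22.0% of the nuclear genes, and 8 of the 11 lay above the nuclear median. The median level of these members was 32.0 and that of the nuclear genes 22.5. Level is per length, so genes of like level can differ in counting units, which were not compared here. The 11 members share transcripts and pots and are not 11 separate observations.

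By strand, all 12 members with a p-value on the plus strand had a log2 fold change above 0, as had 13 of 17 on the minus strand. The members below 0 were psbE, psbJ, ndhB and ndhJ, all on the minus strand, and psbE and psbJ rested on fewer than 100 counting units. Among members of at least 100 counting units, 10 of 10 on the plus strand and 7 of 9 on the minus strand were above 0. Over all members with a p-value, the medians were 0.53 for the plus and 0.33 for the minus strand. Shares by strand over other genes were not computed. The strand setting of the counting is not known here, and the contrast was seen in the data and not tested.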
